A study of Mus musculus with 6 samples.

Results

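The genes described here are 10 that mark the muscular wall cells of blood vessels, smooth muscle cells and pericytes: Acta2, Tagln, Myh11, Cnn1, Myl9, Pdgfrb, Rgs5, Cspg4, Notch3 and Mcam. They were chosen by name from a table of 57180 genes. RNA was sequenced from inguinal white adipose tissue, the subcutaneous fat of the groin, of male wild-type (WT) mice. Of the 6 libraries, 3 came from mice fed a high-fat diet alone (HFD) and 3 from mice whose high-fat diet held 0.5% hesperidin (HEP), a flavonoid glycoside of citrus fruit, each for 12 weeks and with 1 batch label throughout. Strain background, age and the number of mice per sample were not given in the labels, so the p-values below measure only the spread between these samples. Levels are TPM, a share of each library's transcripts corrected for transcript length, so genes can be compared with each other. TPM keeps no read depth, so depth is unknown here and no counting interval is given.

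Smooth muscle cells ring arteries and veins and contract through actin and myosin, while pericytes sit on capillaries within the basement membrane. Endothelial cells recruit both by releasing PDGF-B, which binds the receptor PDGFRB on the wall cells, and keep them differentiated through the Notch ligand JAG1, which binds NOTCH3. In fat, these cells stabilise the capillary bed around adipocytes and lie close to the niche of adipose progenitors. None of the markers is exclusive: Mcam is also made by endothelial cells, Pdgfrb by fibroblasts and progenitors, and Acta2 by activated fibroblasts.

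Contractile genes of smooth muscle are classic targets of serum response factor, which binds the CArG box in their promoters. Since the contractile members are compared with each other below, the promoters of the members that hold this motif are shown first. The RefSeq promoter table (GRCm38.p6) had 7 of the 10 genes. Tagln, Myh11 and Pdgfrb had no entry. Promoters were searched on both strands, over windows of 300 bases, for the CArG box and, in a search added after the first result was seen, for the same box with 1 of its 6 inner bases a C or G. The 250 bases before the annotated start are printed for Acta2 (chr19:34255374-34255623, minus strand) and Myl9 (chr2:156775214-156775463, plus strand), 5′ to 3′, with the boxes of either kind in capitals.
Acta2: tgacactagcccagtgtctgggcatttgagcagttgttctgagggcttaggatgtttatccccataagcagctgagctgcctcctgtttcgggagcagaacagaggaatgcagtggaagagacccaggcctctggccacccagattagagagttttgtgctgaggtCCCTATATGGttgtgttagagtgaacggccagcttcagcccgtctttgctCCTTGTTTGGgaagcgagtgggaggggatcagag
Myl9: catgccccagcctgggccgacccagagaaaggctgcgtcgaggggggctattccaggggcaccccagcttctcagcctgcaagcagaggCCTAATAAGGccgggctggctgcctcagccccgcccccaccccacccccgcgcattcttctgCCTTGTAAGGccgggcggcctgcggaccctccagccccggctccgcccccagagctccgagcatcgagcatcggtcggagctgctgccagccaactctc
Myl9 held 1 full CArG box, CCTAATAAGG, from 161 to 152 bases before the start, and 1 near-match, CCTTGTAAGG, from 99 to 90 bases before it. Acta2 held 2 near-matches, CCCTATATGG from 84 to 75 bases and CCTTGTTTGG from 34 to 25 bases before the start. The windows of Cnn1, Rgs5, Cspg4, Notch3 and Mcam held neither form. Of all 32851 promoters of the table, 1.63% held a full box and 9.98% a full box or a near-match. These are matches of letters within a short window and not measured binding.

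All 10 genes were detected in all 6 libraries, and differed widely in level. Acta2, the actin of smooth muscle thin filaments, had the highest mean TPM over the 6 libraries (270.3), followed by Rgs5, a brake on G protein signalling and a pericyte marker (226), and Mcam, an adhesion receptor for laminin (191). Myl9, the regulatory light chain of smooth muscle myosin, averaged 105 TPM and Tagln, the actin-bundling protein transgelin, 85.7 TPM. In the order of mean TPM, the ranges of neighbouring genes overlapped over the 6 libraries down to Tagln. Mcam was above Myl9 in all 6 libraries, and Myl9 above Tagln in 5. Pdgfrb, the receptor for PDGF-B, averaged 26.4 TPM, apart from its neighbours on both sides. Myh11, the heavy chain of smooth muscle myosin, averaged 14.7 TPM, Cspg4, the proteoglycan NG2 of pericytes, 13.6 TPM, and Notch3 11.7 TPM, with overlapping ranges. Cnn1, calponin, a thin filament protein of mature smooth muscle, was lowest by far at 1.95 TPM, between 0.87 and 3.33 TPM.

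**Figure D1:**
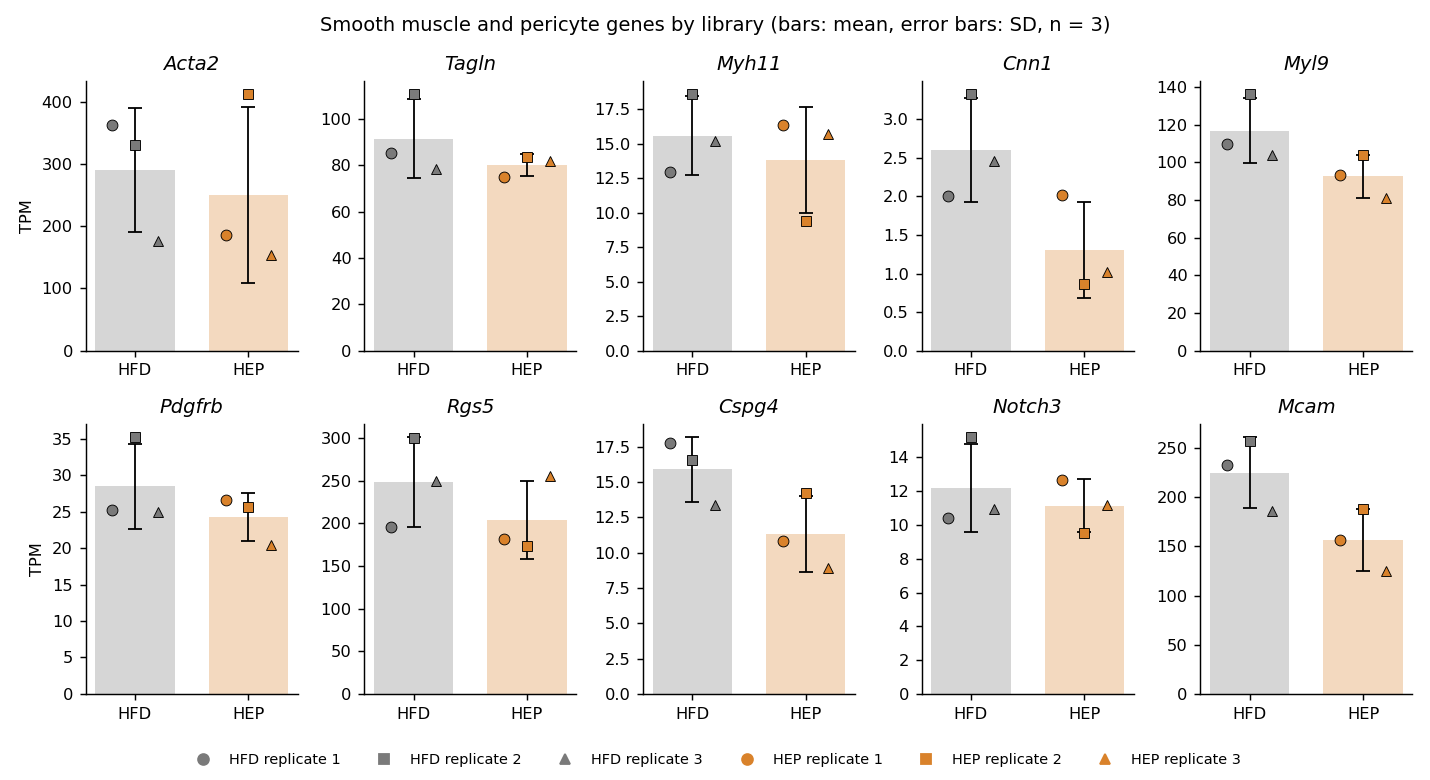
TPM of each of the 10 genes (y axes, each from 0) in the HFD and HEP groups (x axes). Points are single libraries, bars the mean and error bars the SD of 3 libraries. HFD replicate 2 is the highest library for 8 of the 10 genes, and Acta2 is high in HFD replicates 1 and 2 and in HEP replicate 2.

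The design asks whether hesperidin changed these genes on a high-fat diet. All 10 genes had a lower mean in HEP, but none passed the test. When limma was run on log2(TPM + 1) over the 15446 genes that averaged 1 TPM or more, 0 of the 10 genes were higher and 0 lower at an adjusted p under 0.05. Of all tested genes, 0% were called higher and 0% lower, so the test found no gene at all. At an unadjusted p under 0.05, 1 of the 10 was lower (Mcam) and 0 were higher, against 1.13% lower and 0.68% higher of all tested genes. The median log2 fold change of the 10 genes was -0.28, against 0.07 over all tested genes, of which 41.4% had a fitted value below 0. Without HFD replicate 2 this median was -0.14, and with sample quality weights it was -0.44. The values of the groups did not overlap for 1 of the 10 genes (Myl9, lower in HEP), where 3.58% of all tested genes lay entirely lower and 1.88% entirely higher in HEP. In bulk tissue, fewer cells of a type and less RNA per cell cannot be told apart.

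Among the contractile genes, Acta2 stood out for its spread. It had 363, 331 and 176 TPM on HFD (replicates 1, 2 and 3, as in all lists below) against 186, 413 and 153 TPM on HEP. The high libraries were HFD replicates 1 and 2 and HEP replicate 2, and the groups overlapped over nearly their whole range. Its log2 fold change was -0.28 ± 0.45 (SE), with a 95% interval from -1.37 to 0.81 and a limma adjusted p of 0.886. Leaving out 1 library moved this value between -0.71 and 0.00, and with sample quality weights it was -0.77. The SD of Acta2 over the 6 libraries on the log2 scale was 0.62, larger than that of 80.3% of tested genes.

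The other thin filament and myosin genes had a smaller SD over the 6 libraries, and shared the order of libraries to differing degrees. Pearson's r with Acta2 was 0.67 for Myl9, 0.52 for Tagln, 0.01 for Cnn1 and -0.55 for Myh11. For the remaining genes it was 0.82 (Cspg4), 0.76 (Mcam), 0.51 (Pdgfrb), -0.14 (Notch3) and -0.29 (Rgs5). Tagln had 85.3, 111 and 78.2 TPM on HFD against 74.9, 83.6 and 81.7 TPM on HEP. Only HFD replicate 2 stood above the rest, and the groups overlapped. Its log2 fold change was -0.17 ± 0.17 (SE), with a limma adjusted p of 0.879. Leaving out 1 library moved it between -0.28 and -0.03, the latter without HFD replicate 2. The SD of Tagln over the 6 libraries, 0.20 on the log2 scale, was larger than that of only 19.9% of tested genes. Tagln is the member with the largest exonic overlap with another gene. In GENCODE M21, 62.4% of its exonic bases overlap the opposite-strand gene Gm48529. The labels do not say whether strand was kept, so the origin of reads there is uncertain. The table gives Gm48529 a mean of 2.93 TPM.

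Myl9 was the 1 gene whose groups were separate. Its values were 110.0, 136 and 104 TPM on HFD against 93.2, 104 and 81.1 TPM on HEP. The lowest HFD library (103.84 TPM) and the highest HEP library (103.70 TPM) were almost equal, so the separation is narrow. The means were 117 ± 17.3 TPM in HFD and 92.7 ± 11.3 TPM in HEP (SD, n = 3), and the log2 fold change was -0.33 ± 0.17 (SE), with a limma adjusted p of 0.879. Without HFD replicate 2 it was -0.21.

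Myh11, like Acta2, was high in HFD replicate 2, but differed from it in other libraries. Myh11 had 12.9, 18.6 and 15.2 TPM on HFD against 16.3, 9.36 and 15.7 TPM on HEP. Its lowest libraries were HEP replicate 2 and HFD replicate 1, the 2 libraries in which Acta2 was highest. The TPM ratio of Acta2 to Myh11 was 28.1, 17.8 and 11.6 on HFD against 11.4, 44.1 and 9.77 on HEP. Pearson's r between the log2 values of Acta2 and Myh11 was -0.55 over the 6 libraries, the lowest of all 45 pairs among the 10 genes. The log2 fold change of Myh11 was -0.19 ± 0.26 (SE), with a limma adjusted p of 0.880. The sign turned without HEP replicate 2 (0.05), the value without HFD replicate 2 was -0.06, and sample quality weights gave -0.02.

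Cnn1 had the largest fitted difference of the 10 genes at the lowest level. It had 2.01, 3.33 and 2.46 TPM on HFD against 2.02, 0.87 and 1.02 TPM on HEP. The groups overlapped only because HEP replicate 1 lay just above the lowest HFD library. The means were 2.60 ± 0.67 TPM and 1.30 ± 0.63 TPM (SD, n = 3), and the log2 fold change was -0.66 ± 0.31 (SE), with a limma adjusted p of 0.879. At this level the value depends on the pseudocount, and with 0.01 in place of 1 it was -1.06.

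**Figure D2:**
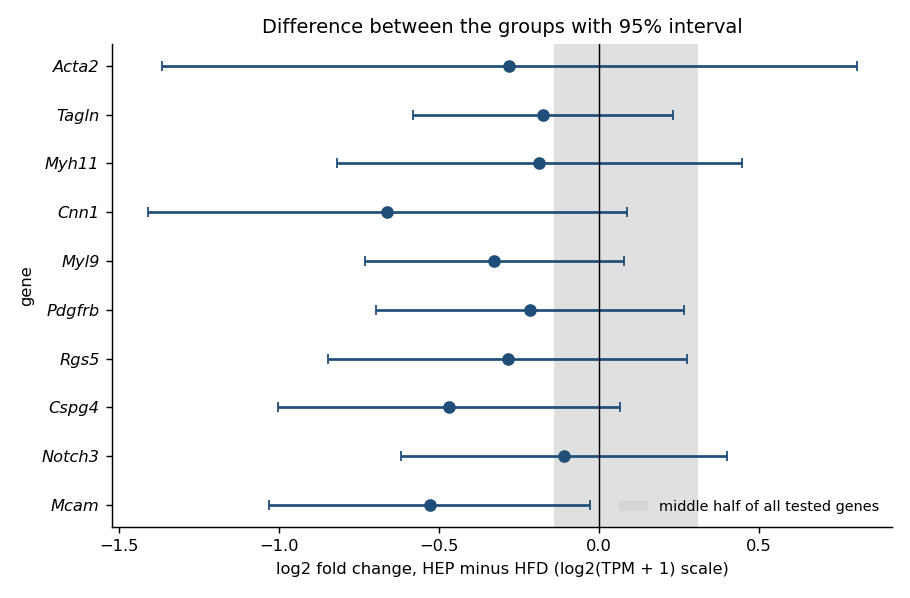
Log2 fold change, HEP minus HFD, of each of the 10 genes on the log2(TPM + 1) scale, with the 95% interval of limma, and the middle 50% of all tested genes in grey. All 10 points lie below 0, and only the interval of Mcam, before adjustment over all genes, excludes 0.

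Of the pericyte and signalling genes, Mcam and Cspg4 had the lowest fitted values. Mcam had 232, 257 and 186 TPM on HFD against 156, 188 and 125 TPM on HEP. HEP replicate 2 (187.79 TPM) lay just above HFD replicate 3 (185.76 TPM), which is the whole overlap of the groups. The means were 225 ± 36.1 TPM and 156 ± 31.3 TPM (SD, n = 3). The log2 fold change was -0.53 ± 0.21 (SE), with a 95% interval from -1.03 to -0.03, a limma p of 0.0415 before and 0.879 after adjustment. Leaving out 1 library moved it between -0.67 and -0.38.

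Cspg4 followed Mcam closely from library to library. It had 17.8, 16.5 and 13.3 TPM on HFD against 10.8, 14.2 and 8.94 TPM on HEP. The groups overlapped only through HEP replicate 2, which lay above HFD replicate 3. Its log2 fold change was -0.47 ± 0.22 (SE), with a limma adjusted p of 0.879. With the level of B and T cell markers as a covariate, described below, it was -0.30. Pearson's r between Cspg4 and Mcam was 0.97 over the 6 libraries, the highest of the 45 pairs, and that between Mcam and Myl9 was 0.96.

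Both receptor genes were highest in HFD replicate 2, the highest library for 8 of the 10 genes. Pdgfrb had 25.3, 35.2 and 24.95 TPM on HFD against 26.6, 25.7 and 20.5 TPM on HEP. Notch3 had 10.4, 15.2 and 10.97 TPM on HFD against 12.7, 9.55 and 11.2 TPM on HEP. The groups overlapped for Pdgfrb and for Notch3. The log2 fold change was -0.22 ± 0.20 (SE) for Pdgfrb, with a limma adjusted p of 0.879. It was -0.06 without HFD replicate 2, -0.10 without HEP replicate 3 and -0.39 with sample quality weights. For Notch3 it was -0.11 ± 0.21 (SE), with a limma adjusted p of 0.903, and it ranged from -0.21 to 0.05 when 1 library was left out, the latter without HFD replicate 2. Quantile normalization gave -0.26 for Notch3.

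Rgs5 did not closely follow Pdgfrb, with a Pearson's r of 0.29 over the 6 libraries, although both were highest in HFD replicate 2. It had 195, 301 and 249.8 TPM on HFD against 182, 174 and 256 TPM on HEP. High libraries were HFD replicates 2 and 3 and HEP replicate 3, and the groups overlapped. The log2 fold change was -0.29 ± 0.23 (SE), with a limma adjusted p of 0.879. Without HFD replicate 2 it was -0.14, without HEP replicate 3 -0.46, and with sample quality weights -0.07. The ratio of Rgs5 to Pdgfrb in TPM was 7.74, 8.54 and 10.01 on HFD against 6.84, 6.77 and 12.5 on HEP.

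**Figure D3:**
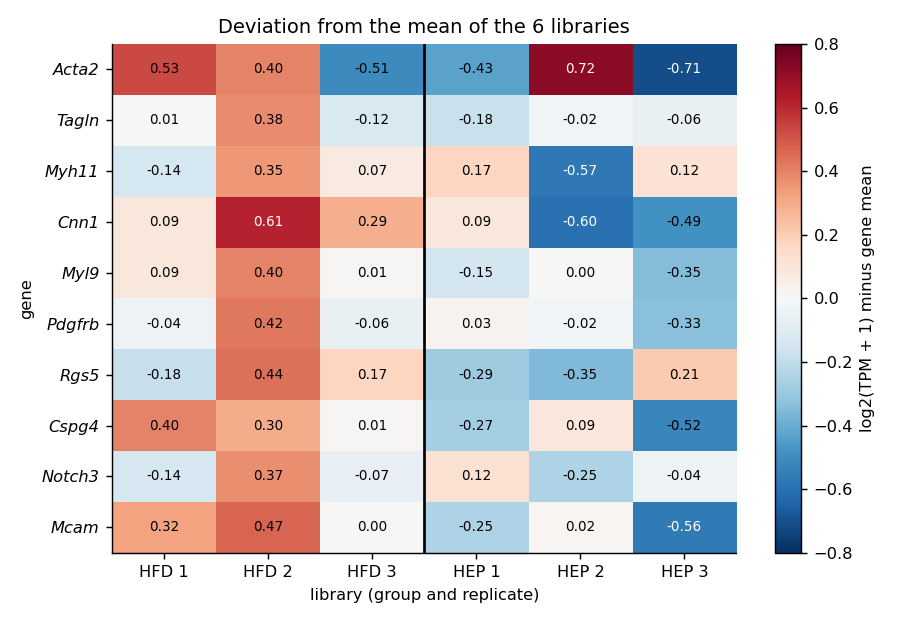
Deviation of log2(TPM + 1) from the mean of the 6 libraries for each of the 10 genes (rows) in each library (columns). Red is above and blue below the gene's mean. HFD replicate 2 is above the mean for all 10 genes, and the Acta2 row differs in sign from most rows in HFD replicate 3 and HEP replicate 2. Several of those other rows lie close to their mean there.

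Across libraries, HFD replicate 2 was the one in which the 10 genes stood highest together. It was above the mean of the 6 for all 10 genes and the highest for 8 of them, with a median deviation of 0.40 on the log2 scale. HEP replicate 3 was lowest for 5 genes, with a median deviation of -0.34, and HEP replicate 2 lowest for 4. The 10 genes summed to 1054, 1224 and 861 TPM on HFD against 760.1, 1021 and 755 TPM on HEP. The sum of Acta2, Tagln, Myh11, Cnn1 and Myl9 was 573, 599.7 and 376 TPM on HFD against 372, 610.2 and 333 TPM on HEP, which overlapped and was led by Acta2. The sum of the other 5 genes was 481, 625 and 485 TPM on HFD against 388, 411 and 422 TPM on HEP, without overlap. Each of these 5 genes alone did overlap between the groups. Rgs5 and Mcam were the most abundant of them, and within HEP replicate 3 was highest for Rgs5 and lowest for Mcam. The median Pearson's r of the 45 pairs was 0.62, with 39 above 0. The points of these correlations share their libraries and the total to which TPM is scaled.

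Genes with the most similar pattern were sought among 11055 other genes that averaged 5 TPM or more, by Pearson's r over the 6 libraries with the mean of the 10 standardised values. The highest were Calu, a calcium-binding protein of the secretory pathway, Jcad, a protein of endothelial junctions, Fbn1, which encodes the microfibril protein fibrillin-1, Eps8, a regulator of actin filaments, a gene without a name in the table, and Tdrd7. Their r was 0.99 in each case. The 5 contractile genes alone were most like Calu, Tdrd7 and Jcad, and the other 5 most like the unnamed gene, Calu and Lsm12. Calu had 156, 219 and 142 TPM on HFD against 138, 138 and 119 TPM on HEP, again with HFD replicate 2 highest. With 6 libraries, 307 genes reached an r above 0.9, so this likeness singles out no small set.

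The wider contractile apparatus had as many fitted values above 0 as below. Of 32 further genes of this kind, 30 were tested, 15 had a log2 fold change above 0 and 15 below, 0 were called in either direction and the median was -0.01. Its most abundant member, Myl6, the essential light chain of smooth and non-muscle myosin, had 2060.0, 2334 and 1923 TPM on HFD against 1589.8, 1983 and 1643 TPM on HEP. Tpm1, a tropomyosin that striated muscle also makes, had 85.7, 178 and 87.4 TPM on HFD against 289, 2093 and 82.6 TPM on HEP. Tpm1 was thus highest in HEP replicate 2, the library in which skeletal muscle markers summed to 15828 TPM. Des, Tpm2 and Pdlim3, with fitted values above 0, were also highest there, at 153.91, 364.63 and 79.01 TPM. Hspb1 and Hspb6, with fitted values below 0, were highest there too. Cnn2 and Actn1, above 0, were highest in HFD replicate 3 and HEP replicates 1 and 3, which had high B and T cell markers. These further genes were named after their values were seen. The part of muscle and lymphocyte content in the even split was not tested.

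Further pericyte genes more often had a lower than a higher mean in HEP, without passing the test. Of 22 listed, 20 were tested, 6 had a higher and 14 a lower mean in HEP, 0 were called, and the median log2 fold change was -0.17. Kcnj8 and Abcc9 together form the ATP-sensitive potassium channel of pericytes and were named after their values were seen. Kcnj8 had 17.8, 25.9 and 23.1 TPM on HFD against 24.8, 26.6 and 20.5 TPM on HEP. Abcc9 had 13.6, 20.8 and 19.2 TPM on HFD against 22.6, 21.7 and 20.3 TPM on HEP. Their fitted log2 fold changes, 0.11 and 0.28, lay above 0, with overlapping groups. Aoc3, Art3 and Steap4 were the most abundant on the list, and adipocytes also make Aoc3. Their log2 fold changes were -0.44, -0.26 and -0.20. Higd1b and Tbx18 were among 3 genes of the list with separate groups, all lower in HEP, where 3.58% of all tested genes lay entirely lower. Higd1b had 18.1, 21.8 and 20.5 TPM on HFD against 14.7, 17.9 and 14.1 TPM on HEP. Tbx18, a transcription factor of wall cells, had 3.12, 3.77 and 3.02 TPM on HFD against 2.95, 2.52 and 2.19 TPM on HEP. The limma adjusted p was 0.879 for both.

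On the ligand side, all 5 other PDGF genes had a lower mean in HEP, with a median log2 fold change of -0.20 and 0 called. Pdgfb, the endothelial ligand of PDGFRB, had 24.7, 28.9 and 25.4 TPM on HFD against 22.8, 25.1 and 18.2 TPM on HEP, with overlap. Pdgfd, a further ligand of that receptor, had 19.2, 21.1 and 17.4 TPM on HFD against 16.6, 22.9 and 16.0 TPM on HEP, and Pdgfra, the receptor of fibroblasts and progenitors, had a log2 fold change of -0.08. Of 15 tested Notch genes, 12 had a lower mean and 3 a higher one, with a median of -0.22 and 0 called. Groups were separate and lower in HEP for 4 of them, where 3.58% of all tested genes lay entirely lower. Jag1, the endothelial ligand of NOTCH3, had 23.8, 25.9 and 18.9 TPM on HFD against 18.7, 18.4 and 13.1 TPM on HEP. The Notch targets Nrarp and Hey1 and the gene Nrip2 were the others, with log2 fold changes of -0.40, -0.39 and -0.29 and a limma adjusted p of 0.879. The lowest HFD and highest HEP values of Jag1 differed by less than the spread within each group. Rbpj, the DNA-binding partner of all Notch receptors, had a log2 fold change of 0.08.

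Regulators of the contractile programme were split in direction. Of 18 tested, 11 had a higher and 7 a lower mean in HEP, with a median log2 fold change of 0.08 and 0 called. Srf itself had 5.54, 7.53 and 11.9 TPM on HFD against 12.02, 8.60 and 12.9 TPM on HEP. It was highest in HFD replicate 3 and HEP replicates 1 and 3, the libraries with high B and T cell markers, described below. Which cells this Srf came from was not tested. Myocd, which encodes myocardin, the coactivator of SRF in smooth muscle, was between 0.06 and 0.51 TPM and below the level tested. Srf and Myocd were named after their values were seen. Mef2c (12.2, 15.8 and 30.6 TPM on HFD against 50.6, 20.9 and 59.9 TPM on HEP), Tgfb1 and Tgfbr2 were the most abundant, and immune cells also make all 3. Of the 18 tested, 1 had separate groups, where 3.58% of all tested genes lay entirely lower in HEP. That gene, Gata6, had 4.52, 3.32 and 4.05 TPM on HFD against 3.31, 2.35 and 2.59 TPM on HEP, so the separation is narrow. Its log2 fold change was -0.41, with a limma adjusted p of 0.879.

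Among receptors and effectors of vascular tone, 26 of 35 were tested, 6 with a log2 fold change above 0 and 20 below, a median of -0.04 and 0 called. Of these 26, 1 had separate groups, where 3.58% of all tested genes lay entirely lower in HEP. That gene, Ednrb, an endothelin receptor, had 25.8, 27.8 and 25.4 TPM on HFD against 18.4, 21.5 and 17.7 TPM on HEP. The fitted difference was -0.44 ± 0.15 (SE) on the log2 scale, with a limma p of 0.0222 before and 0.879 after adjustment. The most abundant were Npr3, the clearance receptor of natriuretic peptides that adipocytes also make, Rhoa and Rock2, with log2 fold changes of -0.35, -0.07 and 0.00. Basement membrane and binding partners of Mcam and Cspg4 were lower in mean for 12 of 13 tested genes, with a median of -0.33 and 0 called. Col4a1, a chain of collagen IV, had 359, 462 and 279.9 TPM on HFD against 245, 319 and 236 TPM on HEP. Nid1, which links collagen IV to laminin, and Itgb1, an integrin chain, had log2 fold changes of -0.33 and -0.19. Of these 13 genes, 1 had separate groups, lower in HEP. It was Kdr, the VEGF receptor of endothelial cells, with a log2 fold change of -0.29.

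Endothelial cells line the vessels that these wall cells cover. All 12 of their markers had a lower mean in HEP, with a median log2 fold change of -0.29 and 0 called. Groups were separate for 5, all lower in HEP, where 3.58% of all tested genes lay entirely lower and 1.88% entirely higher. Cldn5, a tight junction protein, had 184, 205 and 167 TPM on HFD against 122, 142 and 166 TPM on HEP. Its lowest HFD value (166.87 TPM) and highest HEP value (165.87 TPM) were almost equal. The mean log2(TPM + 1) of the 10 genes minus that of the 12 endothelial markers was -0.45, -0.40 and -0.59 on HFD against -0.41, -0.54 and -0.56 on HEP. The group means of this difference were -0.48 ± 0.10 and -0.51 ± 0.08 (SD, n = 3), and differed by less than either SD.

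The libraries also differed in the markers of other cells, which moved with some of these results. Adipocyte genes, 12 in all, were abundant in this fat tissue and summed to 52767 to 66802 TPM in HFD and 38626 to 63465 TPM in HEP. All 12 had a lower mean in HEP, with a median log2 fold change of -0.44. The 9 B cell markers summed to 6.65, 6.57 and 587 TPM on HFD against 1204, 6.70 and 1293 TPM on HEP, and the 10 T cell markers to 8.01, 14.1 and 558 TPM on HFD against 746, 9.74 and 805 TPM on HEP. The 3 libraries high in Acta2 were the 3 with low sums of both. With the B and T cell level as a covariate, an alternative chosen after the data were seen, the log2 fold change of Acta2 was 0.19, that of Mcam -0.36 and the median of the 10 genes -0.26.

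Skeletal muscle markers, 12 genes, summed to 289.6, 826 and 132 TPM on HFD against 1821, 15828 and 73.7 TPM on HEP. Acta1, the skeletal muscle actin, had 135, 153 and 30.7 TPM on HFD against 268, 2562 and 23.2 TPM on HEP. HEP replicate 2 was the highest library for both Acta1 and Acta2. HFD replicate 1, the next highest for Acta2 at 363 TPM, had 135 TPM of Acta1. Of 2146 words of 50 bases in the Acta2 transcripts of GENCODE M21, 0.326% also occurred in any other gene. These are exact matches, and whether reads of related actins entered the Acta2 values was not tested. Liver markers, 6 genes, summed to 1619, 56.0 and 106 TPM on HFD against 12.7, 2459 and 85.4 TPM on HEP. Without both libraries highest in liver transcripts, HFD replicate 1 and HEP replicate 2, the median log2 fold change of the 10 genes was -0.40, all 10 remained lower in mean and 0 were called. Lymph node stroma markers, which can include contractile reticular cells, summed to 26.4, 23.7 and 410.4 TPM on HFD against 425, 29.4 and 508 TPM on HEP, with 7 of 8 listed genes in the table. Epithelial Krt5, Krt14 and Krt15 were between 0 and 0.27 TPM in every library, and the 6 mesothelial markers summed to at most 3.76 TPM. Cells other than wall cells that make some of the 10 genes were checked as well. Progenitor and fibroblast markers, 12 genes, which mark cells that also make Pdgfrb, summed to 4081, 4524 and 2843 TPM on HFD against 2688, 4136 and 2269 TPM on HEP, 10 of them with a lower mean in HEP. Schwann cell and oligodendrocyte precursor markers, 7 genes, which mark lineages that can make Cspg4, summed to 186, 355 and 103 TPM on HFD against 156, 229 and 73.2 TPM on HEP, and all 5 tested had a lower mean in HEP. The part of the lymphocyte, muscle, liver, adipocyte, progenitor and Schwann cell content in the values of the 10 genes was not tested beyond these figures.

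**Figure D4:**
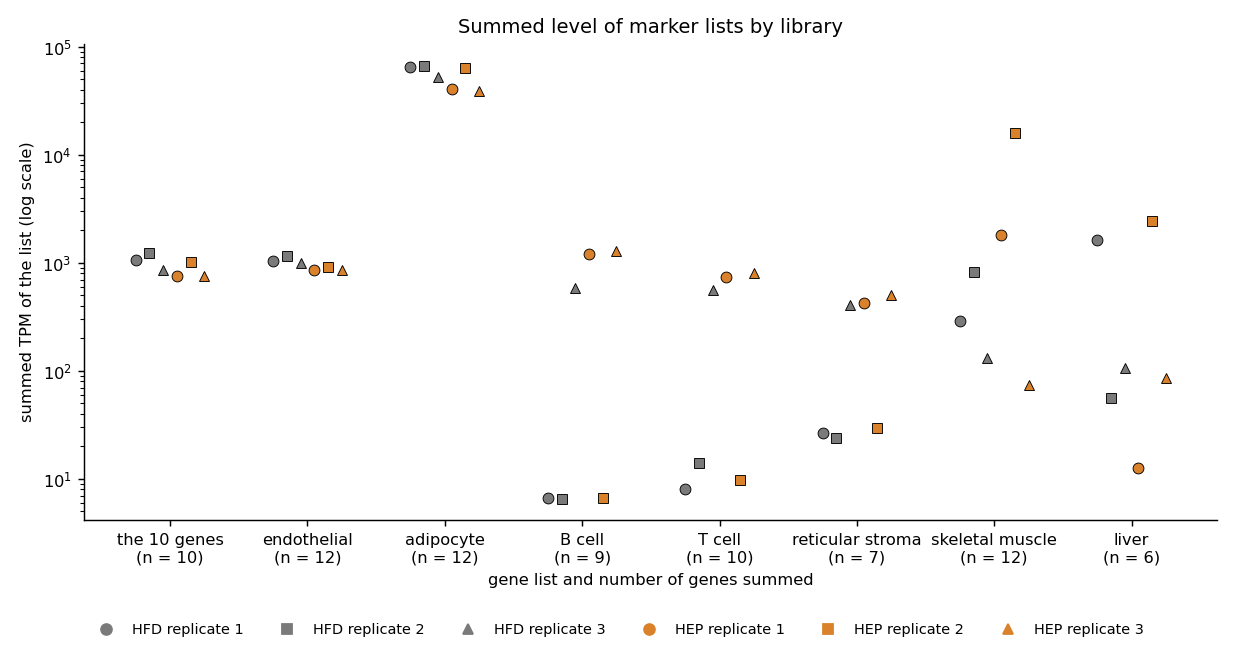
Summed TPM (log axis) of the 10 genes and of marker lists of other cell types in each library. Points are libraries, grey for HFD and orange for HEP, with the shape giving the replicate. The 10 genes span 755 to 1224 TPM, while B cell markers span 6.57 to 1293 TPM and skeletal muscle markers 73.7 to 15828 TPM.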

How the data were processed

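TPM values per gene were deposited by the authors for each of the 6 samples, together with a mean per group. Tools listed in the submitters' processing notes are RSEM, HISAT2, fastp, DESeq2 and StringTie, without roles or versions. Genome build, annotation and strandedness were not given in the sources used here. Samples were grouped by their titles. For each gene, log2(TPM + 1) was taken, and the 15446 of 57180 genes averaging 1 TPM or more, all 10 members among them, were compared between HEP and HFD with limma 3.58.1 in R 4.3.3, with an intensity trend. Tests were two-sided, and p-values were adjusted by the Benjamini-Hochberg method across the 15446 genes, with a threshold of 0.05. Fold changes include the pseudocount of 1, so those of low genes come out too small. SE and 95% intervals are limma's moderated ones. TPM are shares, so abundant transcripts of other cells in a library lower all its other values. The fit was tested on simulated data.

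The members and the gene lists were chosen with earlier results of these data known. All 10 members were named. From each other gene list, the rule took the 3 most abundant genes and up to 4 whose groups did not overlap. A few genes that the rule took are not reported here. Marker lists of other cells are given mainly as sums. Alternatives covered the pseudocount, filter, scaling, weights, a replicate block and each library left out. Promoters are from RefSeq (GRCm38.p6), and overlaps and shared words from GENCODE M21.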

Additional observations from a re-analysis of the deposited data

How the results depend on the processing

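In no alternative did any of the 10 genes pass, and the smallest limma adjusted p of a member was 0.120 (sample quality weights, with a member median of -0.44). With these weights 0.120 was also the smallest limma adjusted p of all tested genes, and 5079 of those genes had a limma p under 0.05 before adjustment. Leaving out each library in turn gave 0 to 1 called genes, 0 called members, and a median log2 fold change of the members from -0.35 to -0.14. The 1 called gene, found without HEP replicate 2, was Gm25541, no member and named after its values were seen. The same leave-outs gave -0.71 to 0.00 for Acta2, -0.32 to 0.05 for Myh11 and -0.21 to 0.05 for Notch3, with a change of sign for each. Acta2 reached 0.0029 when HEP replicate 3 was dropped, Myh11 0.053 when HEP replicate 2 was, and Notch3 0.047 when HFD replicate 2 was. With the lymphocyte covariate, chosen after the data were seen, Acta2 also changed sign, to 0.19. The cause was not tested. The other 7 genes kept their sign in every alternative that gave a value. A minimum of 5 TPM left out Cnn1. Quantile normalization moved the median of all tested genes by -0.13, and that of the members to -0.32. The replicate block gave 0 called genes and a median of -0.28 for the members. Same-numbered libraries deviated from their group means with correlations of -0.35, 0.37 and 0.65 over genes. HFD replicate 1 correlated best with HEP replicate 2 (0.48), and HFD replicates 2 and 3 with the HEP library of their own number. The labels state no pairing, and these correlations cannot show whether the numbers carry one, because libraries also differ in cell content. Read depth is unknown, so precision rests on the 3 libraries per group alone.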

Other observations

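Non-muscle relatives of the contractile genes had patterns of their own. Cnn2, the calponin of non-muscle cells, had 20.8, 24.6 and 69.2 TPM on HFD against 89.2, 22.6 and 96.5 TPM on HEP, high in the 3 libraries with high B and T cell markers, whereas Cnn3 stayed between 59.3 and 84.4 TPM. Myh9, a non-muscle myosin heavy chain, had 55.5, 72.0 and 97.6 TPM on HFD against 122, 48.3 and 124 TPM on HEP. Of 11 tested relatives of the members, 1 had separate groups, where 3.58% of all tested genes lay entirely lower in HEP. It was Myh10, a further non-muscle heavy chain, with 25.1, 25.01 and 21.5 TPM on HFD against 18.9, 21.4 and 17.6 TPM on HEP. The lowest HFD value (21.49 TPM) and highest HEP value (21.42 TPM) of Myh10 were almost equal, and its limma adjusted p was 0.879. Actb and Actg1, the cytoplasmic actins, had log2 fold changes of 0.31 ± 0.37 and 0.24 ± 0.37 (SE), against -0.28 ± 0.45 for Acta2. The groups overlapped for each of these actins. Both cytoplasmic actins were highest in the 3 libraries with high B and T cell markers. The smooth muscle actin Actg2 was between 0.54 and 2.18 TPM and the cardiac actin Actc1 at most 0.64 TPM. Tagln2, a relative of transgelin that lymphocytes make, had 66.2, 118 and 110.4 TPM on HFD against 114, 91.6 and 113 TPM on HEP. None of these that were tested passed. Cnn2, Cnn3, Myh9, Actg2, Actc1 and Tagln2 were named after their values were seen.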
